A study of Zea mays with 9 samples.

Results

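Maize leaves infiltrated with salicylic acid (SA) were set against leaves infiltrated with mock solution, 6 h after infiltration. The libraries were taken by their labelled treatment: 3 SA and 3 mock libraries, 6 of the 9 in the series, with all 39755 genes of the count table. The remaining 3 libraries came from leaves infiltrated with Zip1, a signalling peptide of maize that gives the series its title. Per the labels, plants of the cultivar Golden Bantam, a sweet corn, were 8 days old in soil when leaf 2 was cut, and the solution was drawn in under a vacuum of 60 mbar. The solutions held 2 mM SA, 5 µM Zip1, or water with 0.1% of the solvent dimethyl sulfoxide (mock). Whether SA and Zip1 were also given in dimethyl sulfoxide, how many plants made up a library and whether replicates came from separate plants is not stated, so the p-values measure the spread between these libraries only. All 3 groups share the cut and the vacuum.

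Salicylic acid is a phenolic plant hormone that builds up after attack by pathogens that feed on living tissue. In Arabidopsis it is made mainly from isochorismate, is sensed by NPR proteins that act with TGA bZIP factors on defence genes, and is removed by hydroxylation, methylation and glucosylation. Rice leaves hold high levels of the hormone already at rest, and in Arabidopsis applied SA is known to raise detoxifying enzymes as well as defence proteins. The comparison described here asks which classes of genes, beyond heat shock proteins, WRKY factors, glutathione S-transferases and UDP-glycosyltransferases, were higher or lower in SA leaves.

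The SA libraries held 28840453 to 38794412 counts, the Zip1 libraries 29427404 to 32134062 and the mock libraries 30242293 to 31924387. After a filter on low counts, 23077 genes were tested. The mesophyll and bundle sheath markers of a C4 grass were abundant in every library, so the markers did not go against the leaf label. Pyruvate phosphate dikinase (Zm00001eb287770) alone had 30756 to 37219 CPM (counts relative to the library total) in SA libraries and 36070 to 41347 in mock libraries. The summed mesophyll markers spanned 56000 to 65777 CPM in SA and 63086 to 69808 CPM in mock libraries, and 1 of the 14 tested was higher and 0 lower. The bundle sheath markers spanned 17284 to 18117 CPM in SA and 14347 to 26658 CPM in mock libraries (1 of 12 higher, 0 lower). The epidermis and cuticle markers summed to 646 to 1101 CPM in SA and 966 to 1866 CPM in mock libraries, with 1 of 34 higher, 0 lower and a median log2 fold change of −0.46. The vascular markers summed to 90.9 to 101 CPM in SA and 109 to 192 CPM in mock libraries, which did not overlap (2 of 8 higher, 1 lower), and 8 of the 28 vascular markers in the table had no count in any library. In bulk leaf RNA, fewer cells of a type and less RNA per cell cannot be told apart, and the part of these shifts in the results below was not tested.

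In edgeR's quasi-likelihood test with Benjamini-Hochberg adjustment, 1436 genes (6.22% of those tested) passed an adjusted p of 0.05 for SA against mock. Of these, 1180 genes (5.11%) were higher in SA leaves and 256 (1.11%) were lower. These 2 shares are the background for every class count below. The median log2 fold change (SA over mock) was 1.81 among the higher genes, −1.18 among the lower genes and −0.041 over all tested genes. Log2 fold changes reached 2 or more in 546 higher genes and −2 or less in 51 lower genes. The median in mock leaves was 210.6 normalised counts for the higher genes, 765.5 for the lower genes and 298 for all tested genes. The same mock libraries entered the calls, so the choice of genes in part sets these medians. Normalised counts are counts scaled to the mean library size, so they compare a gene between libraries and not genes with each other. The call counts leaned on single libraries: leaving out SA replicate 3 gave 839 calls, leaving out mock replicate 2 gave 886 and leaving out mock replicate 1 gave 887. In the same 3 fits the higher genes numbered 749, 770 and 747, and the lower genes 90, 116 and 140. Leaving out SA replicate 1 gave 162 lower genes. When replicate numbers entered as a block, 2220 genes (9.62%) were called, 1541 higher (6.68%) and 679 lower (2.94%). SA and mock libraries with the same number deviated together, but the calls used below leave the number out.

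**Figure D1:**
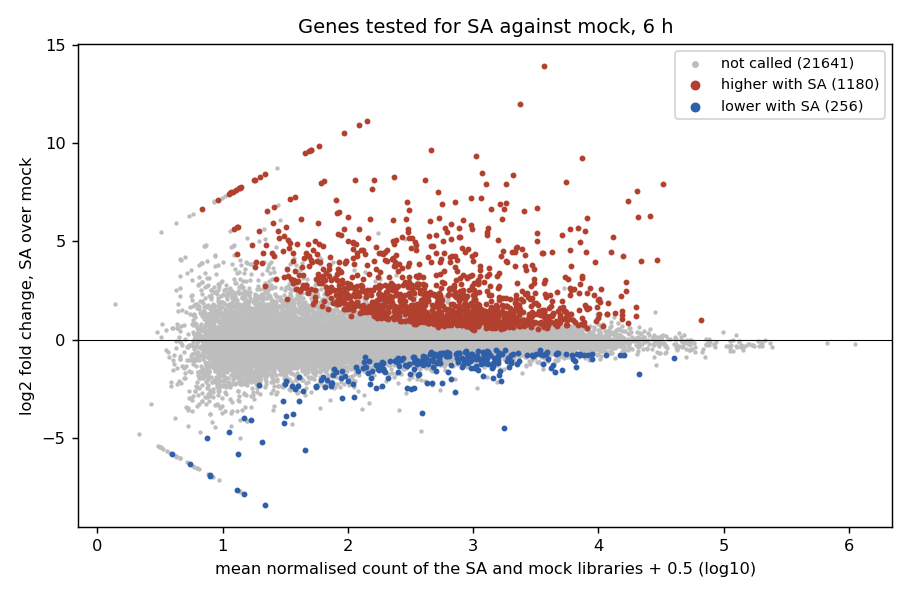
Each point is 1 of 23077 tested genes, with the mean normalised count of the SA and mock libraries (plus 0.5) on a log10 axis and the log2 fold change of SA over mock on the vertical axis. The 1180 genes called higher (red) reach further from 0 than the 256 called lower (blue), and the called genes on the left of the plot are mostly higher. The straight edges at the far left are genes with 0 counts in 1 group, whose fitted values are no measure of size.

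The genes called higher took 9.01%, 7.74% and 10.9% of the counts of the SA libraries and 2.47%, 2.16% and 3.02% of the mock libraries. The genes called lower took 0.864%, 0.912% and 0.766% of the SA libraries and 1.56%, 1.7% and 1.74% of the mock libraries. Since the genes were picked on these libraries, the shares only describe how much of the messenger RNA lay in them. Of the higher genes, 125 (10.6%) belonged to the heat shock, WRKY, glutathione S-transferase and UDP-glycosyltransferase classes, and of the lower genes 1 did. A further 99 classes were made from words in the protein entries and Pfam names of the table, and held 365 genes called higher and 86 called lower. Without mock replicate 1 the higher genes in these classes numbered 234. The lower ones numbered 32 when SA replicate 3 was left out, 38 for mock replicate 2, 46 for mock replicate 1 and 55 for SA replicate 1, and 219 with the replicate block. An entry gives the name of a similar protein, for many genes one of another plant. Genes that fall outside the naming rule given with the methods are marked as picked after their values were seen.

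**Figure D2:**
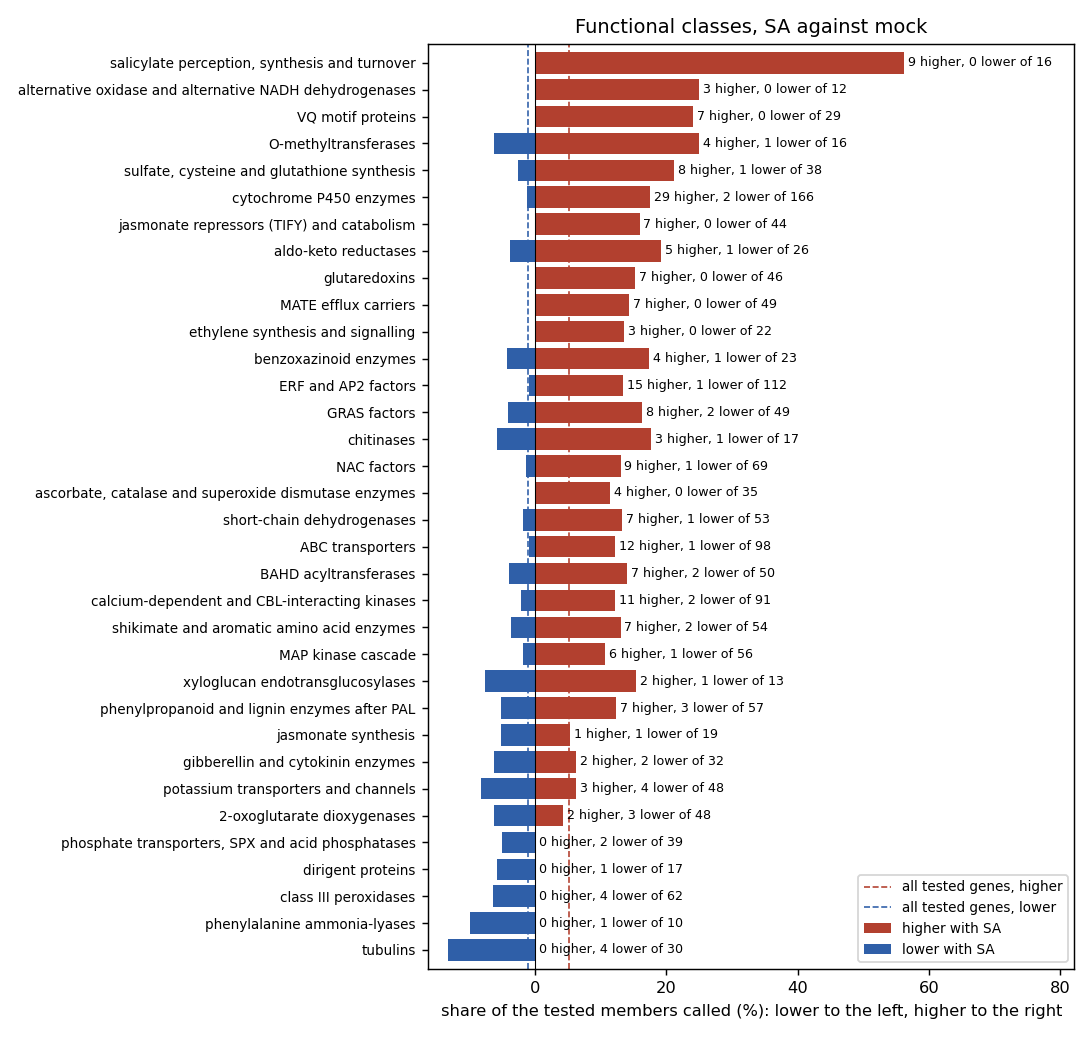
Bars give the percentage of tested members called higher (red, to the right) or lower (blue, to the left) in SA leaves for 34 classes with at least 10 tested members and at least 10% higher or 5% lower, the heat shock, WRKY, glutathione S-transferase and UDP-glycosyltransferase classes left out. Dashed lines mark the shares of all tested genes, 5.11% higher and 1.11% lower; the salicylate class stands at the top with 9 of 16 higher, and tubulins and class III peroxidases show lower members only.

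The genes of salicylate perception, synthesis and turnover had the highest share of risen members among the 99 classes. Of 16 tested, 9 were higher and 0 lower, with a median log2 fold change of 1.16. Those that rose carry entries for proteins that sense or convert the hormone or act in its signalling. Salicylate genes called higher numbered 5 without SA replicate 3. Zm00001eb073030 (chromosome 2, 15774137 to 15777049, plus strand; the genome build is not given in the sources used here) matches DMR6-LIKE OXYGENASE 1, an enzyme that hydroxylates salicylic acid in Arabidopsis. It had 5659, 4123 and 5190.5 normalised counts in the SA libraries and 49, 34.7 and 76.8 in the mock libraries, a log2 fold change of 6.53 ± 0.38 (SE) at an adjusted p of 9.07e-06. Zm00001eb342270 (chromosome 8, 62710032 to 62712735, plus strand) matches salicylic acid-binding protein 2, the tobacco esterase that frees salicylic acid from its methyl ester. Its counts were 9782, 10822 and 12871 in SA leaves and 429.9, 954 and 1062 in mock leaves, 13.7 times as high by group means and a log2 fold change of 3.77 ± 0.40 (SE) at an adjusted p of 0.000401. In both genes the lowest SA library lay above the highest mock library, which the naming rule required.

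The remaining salicylate genes were picked after their values were seen. Zm00001eb065420, an NPR3 entry, named for a receptor of the hormone, had 1693, 2006 and 1562 counts in SA and 693, 584 and 572 in mock leaves (log2 fold change 1.51, adjusted p = 0.000909). Its model overlaps another gene and carries a Myb-like domain, so this value is uncertain. Zm00001eb370160, an NPR2 entry, rose by 0.81 on the log2 scale (adjusted p = 0.0185), and the lipase-like PAD4 entry Zm00001eb202040, a partner of EDS1 in immune signalling, by 0.72 (adjusted p = 0.0336). A pair of genes of the family that binds NPR1, and in rice and Arabidopsis restrains it, had hardly any counts in mock leaves. Zm00001eb125390, an entry for the rice protein NEGATIVE REGULATOR OF RESISTANCE, had 122.5, 180.1 and 173 counts in SA and 2.09, 1.09 and 0 in mock leaves (adjusted p = 0.000693). Zm00001eb285460, which carries the Pfam domain of NPR1-interacting proteins and no protein entry, had 960.1, 711 and 1109 in SA and 3.13, 0 and 0 in mock leaves (adjusted p = 0.00132). A second SABP2 entry (Zm00001eb369710, log2 fold change 2.43, adjusted p = 0.0192) and a salicylate carboxymethyltransferase (Zm00001eb267640, log2 fold change 2.54, adjusted p = 0.032), which makes the volatile methyl ester, also rose. A gene of hormone synthesis did not pass the test: the isochorismate synthase entry Zm00001eb310840 had 1098, 1065 and 741 counts in SA and 1507, 1795 and 653 in mock leaves, which overlap (log2 fold change −0.45, adjusted p = 0.53). Zm00001eb202040 was no longer called without SA replicate 1, SA replicate 3, Zip1 replicate 3, mock replicate 1 and mock replicate 2 (adjusted p 0.0502 to 0.13). Zm00001eb370160 was no longer called without SA replicate 1, SA replicate 3 and mock replicate 3 (adjusted p 0.0585 to 0.0646). Zm00001eb369710 was no longer called without SA replicate 3, mock replicate 1 and mock replicate 2 (adjusted p 0.0622 to 0.0832). Zm00001eb267640 was no longer called without SA replicate 1, SA replicate 3, mock replicate 1, mock replicate 2 and mock replicate 3 (adjusted p 0.0522 to 0.123).

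Several classes of oxidoreductases and transferases that modify small foreign or stress-made molecules had shares higher above the 5.11% of all tested genes. Other classes of modifying enzymes had shares near it. Aldehyde dehydrogenases counted 1 higher and 1 lower of 21 (4.76% higher). Carboxylesterases counted 3 and 2 of 58 (5.17%), and 2-oxoglutarate dioxygenases 2 and 3 of 48 (4.17%). Cytochromes P450, haem enzymes that hydroxylate many compounds, counted 29 higher and 2 lower of 166 tested, a share higher of 17.5%. P450 genes called higher numbered 19 without mock replicate 1, and with the replicate block there were 30 higher and 11 lower. Zm00001eb159320 (chromosome 3, 222666830 to 222669367, plus strand), a P450 72A15 entry, had 12509, 11421 and 21768 normalised counts in SA and 191, 280 and 529 in mock libraries, a log2 fold change of 5.51 ± 0.46 (SE) at an adjusted p of 8.85e-05. The reductase that passes electrons to P450 enzymes, Zm00001eb178320 (chromosome 4, 74444139 to 74449565, plus strand), had 2962, 1983 and 2059 in SA and 209.8, 289.8 and 245 in mock libraries, a log2 fold change of 3.23 ± 0.25 (SE) at an adjusted p of 5.06e-05. Neither gene overlapped between the groups, which the naming rule required.

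Aldo-keto reductases, which turn reactive aldehydes and ketones into alcohols, counted 5 higher and 1 lower of 26 tested. Zm00001eb037000 (chromosome 1, 200080731 to 200084054, minus strand), an aldo-keto reductase 2 entry, had 27701, 31697 and 62373 normalised counts in SA libraries and 184, 197.5 and 259.9 in mock libraries, a log2 fold change of 7.57 ± 0.38 (SE) at an adjusted p of 3.72e-06. SA replicate 3 was the highest library of this gene, and all SA libraries stood far above all mock libraries. Zm00001eb148000, an entry for family 4 member C10, had 35992, 35478 and 51199 in SA and 2153, 2282.5 and 3192 in mock libraries, a log2 fold change of 4.01 ± 0.28 (SE) at an adjusted p of 2.84e-05. Zm00001eb423470, picked after its values were seen, matches deoxymugineic acid synthase, which makes the iron carrier of grass roots. Its counts were 11289.7, 11476 and 25157 in SA and 96, 149 and 399.8 in mock leaves (log2 fold change 6.21, adjusted p = 0.000627). Summed over the genes of the class, the levels came to 3037, 3208 and 5166 CPM in SA libraries and 784, 934 and 839 CPM in mock libraries. The class median log2 fold change was 0.04, with 14 genes above 0 and 12 below, so the sum does not describe the typical member.

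Of 8 tested 12-oxophytodienoate reductases, 4 were higher and 0 lower. The risen members were 3 entries for reductase 1 and 1 for reductase 5, relatives that act on reactive oxylipins and other electrophiles. Reductase genes called higher numbered 2 without SA replicate 3 or mock replicate 1. Zm00001eb373030 (chromosome 9, 8556872 to 8558569, plus strand) had 2708, 2612 and 4674 normalised counts in SA and 85.6, 162 and 183 in mock leaves, a log2 fold change of 4.54 ± 0.36 (SE) at an adjusted p of 6.69e-05. Its neighbour Zm00001eb373050 (chromosome 9, 8591208 to 8592886, minus strand) had 4160.2, 3433 and 4079.6 in SA and 71, 304 and 148 in mock leaves, a log2 fold change of 4.48 ± 0.44 (SE) at an adjusted p of 0.000277. The pair share 1 protein entry and lie close together, so that reads may have been divided between them. The entries for reductase 7, the peroxisomal enzyme of jasmonate synthesis in maize, did not pass: Zm00001eb040310 had 889, 615 and 737 in SA and 563.5, 728 and 1015 in mock leaves (adjusted p = 0.949). The other reductase 7 entry, Zm00001eb177330, had a log2 fold change of −0.35 (adjusted p = 0.319). Another reductase 1 entry, Zm00001eb131870, and the reductase 11 entry Zm00001eb082050 did not pass either, with log2 fold changes of −0.34 (adjusted p = 0.693) and 0.60 (adjusted p = 0.161). The third reductase 1 entry, Zm00001eb279210, was no longer called without SA replicate 3, mock replicate 1 and mock replicate 2 (adjusted p 0.0503 to 0.055). The reductase 5 entry, Zm00001eb356160, was no longer called without SA replicate 1, SA replicate 3, Zip1 replicate 1, Zip1 replicate 2, Zip1 replicate 3, mock replicate 1 and mock replicate 3 (adjusted p 0.0538 to 0.155).

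Other modifying enzymes moved in part. Short-chain dehydrogenases counted 7 higher and 1 lower of 53, and O-methyltransferases 4 higher and 1 lower of 16. The salutaridine reductase entry Zm00001eb185830, a short-chain dehydrogenase, had 384, 535.5 and 469 normalised counts in SA and 3.13, 0 and 0.985 in mock leaves (adjusted p = 0.000184). Short-chain dehydrogenase genes called with the replicate block numbered 6 higher and 3 lower. O-methyltransferase genes called with the replicate block numbered 4 higher and 3 lower. The O-methyltransferase Zm00001eb169520, an entry for BX7 of benzoxazinoid synthesis, rose by 3.62 on the log2 scale (adjusted p = 0.00672). BAHD acyltransferases, which attach acyl groups to phenolics and sugars, counted 7 higher and 2 lower of 50. Zm00001eb225820 (chromosome 5, 52010256 to 52012514, plus strand), an anthocyanidin glucoside malonyltransferase entry, had 3164, 2555 and 3563 normalised counts in SA and 96, 81.4 and 97.5 in mock leaves, a log2 fold change of 5.07 ± 0.29 (SE) at an adjusted p of 7.52e-06. BAHD genes called higher numbered 4 without SA replicate 3 or mock replicate 1, and with the replicate block there were 7 higher and 4 lower. Outside these classes, the beta-glucosidase 31 entry Zm00001eb384110 had 18246, 8773 and 14422 in SA and 428, 482 and 406 in mock leaves, a log2 fold change of 4.98 ± 0.28 (SE) at an adjusted p of 7.52e-06. Zm00001eb060260, an aldehyde oxidase entry, had 16401, 14796 and 21233 in SA and 1375, 939 and 1093 in mock leaves, a log2 fold change of 3.94 ± 0.22 (SE) at an adjusted p of 7.03e-06. No library of 1 group lay within the range of the other group in these genes, which the naming rule required.

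**Figure D3:**
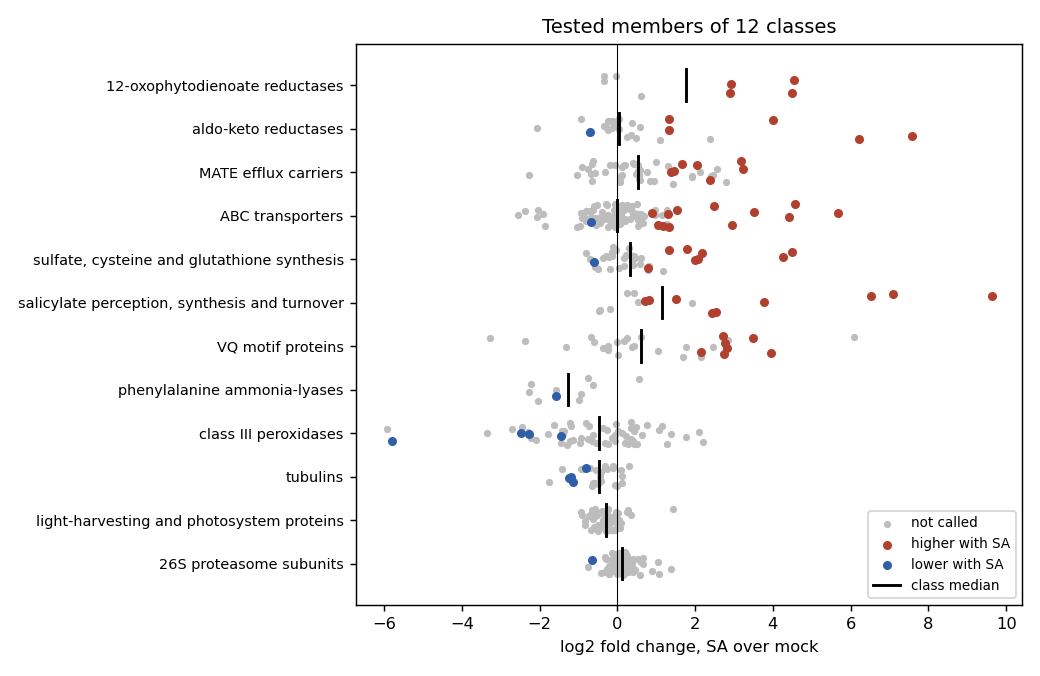
Each point is the log2 fold change (SA over mock) of 1 tested gene in 12 classes, red where called higher, blue where called lower and grey where not called, with a black bar at the class median. Aldo-keto reductases and ABC transporters hold a few genes far to the right with medians of 0.04 and −0.01, whereas the 61 light-harvesting and photosystem genes lie between −0.94 and 1.43 with 0 called.

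Membrane carriers that move such products out of the cytosol also held raised members. MATE carriers, which exchange small molecules for protons, counted 7 higher and 0 lower of 49, with 37 of the 49 above 0 and a median log2 fold change of 0.54. MATE genes called with the replicate block numbered 11 higher and 2 lower. Zm00001eb006660 (chromosome 1, 19189228 to 19196259, plus strand), a DETOXIFICATION 27 entry, had 10902, 10589 and 18315 normalised counts in SA and 1154, 1242 and 1869.8 in mock libraries, a log2 fold change of 3.22 ± 0.36 (SE) at an adjusted p of 0.000458. Summed MATE levels were 2432, 2148 and 3101 CPM in SA and 1071, 1012 and 1253 CPM in mock libraries, which did not overlap. ABC transporters, driven by ATP, counted 12 higher and 1 lower of 98, with a median of −0.01. ABC genes called with the replicate block numbered 17 higher and 5 lower. Zm00001eb161780 (chromosome 3, 230083178 to 230091052, minus strand), an ABCG36 entry, had 20379.5, 11088 and 9296 in SA and 247, 179 and 370.2 in mock libraries, a log2 fold change of 5.68 ± 0.42 (SE) at an adjusted p of 5.32e-05. The ABCG53 entry Zm00001eb310230 had 30933, 21431.5 and 36067.5 in SA and 3842, 3220.2 and 4369.9 in mock libraries, a log2 fold change of 2.95 ± 0.24 (SE) at an adjusted p of 5.91e-05. A member of the carnitine transporter family, Zm00001eb028020, counted with the sugar transporters by its Pfam domain, had 1738, 1888 and 1985 in SA and 98.1, 103 and 94.5 in mock libraries, a log2 fold change of 4.24 ± 0.20 (SE) at an adjusted p of 3.43e-06. The sugar transporters as a class had 3 higher and 1 lower of 86, a share higher of 3.49%. Sugar transporter genes called higher numbered 5 without SA replicate 2, and with the replicate block there were 7 higher and 2 lower.

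Genes of several steps of the pathway that supplies sulfur for glutathione rose. Of 38 tested genes of sulfate reduction, cysteine and glutathione synthesis, 8 were higher and 1 lower, and the class summed to 2958, 3004 and 3314 CPM in SA and 1750, 1904 and 1657 CPM in mock libraries. Glutamate-cysteine ligase, the first enzyme of glutathione synthesis, had the largest rise: Zm00001eb264980 (chromosome 6, 32298243 to 32303351, minus strand) had 21274, 21311 and 30304 normalised counts in SA and 856, 642.5 and 1775 in mock libraries, a log2 fold change of 4.48 ± 0.38 (SE) at an adjusted p of 8.69e-05. The steps before and after it were picked after their values were seen. Adenylylsulfate reductase, which commits sulfate to reduction, rose by 2.19 on the log2 scale in Zm00001eb322440 (adjusted p = 0.000339) and by 1.99 in Zm00001eb105800 (adjusted p = 0.00722). Sulfite reductase (Zm00001eb292100) had 12299.7, 17251.5 and 13963 counts in SA and 6136, 7606 and 3542 in mock libraries (log2 fold change 1.33, adjusted p = 0.0245). Glutathione synthetase (Zm00001eb137820) had 1999, 1785 and 2231 in SA and 1252, 1214.5 and 1033 in mock libraries (log2 fold change 0.78, adjusted p = 0.0147). The class also held a pair of ferredoxin-nitrite reductases, which share the domain of sulfite reductase and act in nitrate use. Of these, Zm00001eb255880 had 1612.5, 1470.1 and 1030.1 in SA and 95, 70.5 and 50.2 in mock libraries, a log2 fold change of 4.25 ± 0.28 (SE) at an adjusted p of 1.83e-05. The uroporphyrinogen methyltransferase entry Zm00001eb358930, for the enzyme that starts the sirohaem cofactor of both reductases, had 2809, 2152.5 and 2103 in SA and 293, 365 and 393 in mock libraries, a log2 fold change of 2.75 ± 0.18 (SE) at an adjusted p of 1.8e-05. Zm00001eb292100 was no longer called without SA replicate 2, SA replicate 3, mock replicate 1 and mock replicate 3 (adjusted p 0.0554 to 0.0746). Zm00001eb137820 was no longer called without SA replicate 3 and mock replicate 3 (adjusted p 0.0608 and 0.055).

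**Figure D4:**
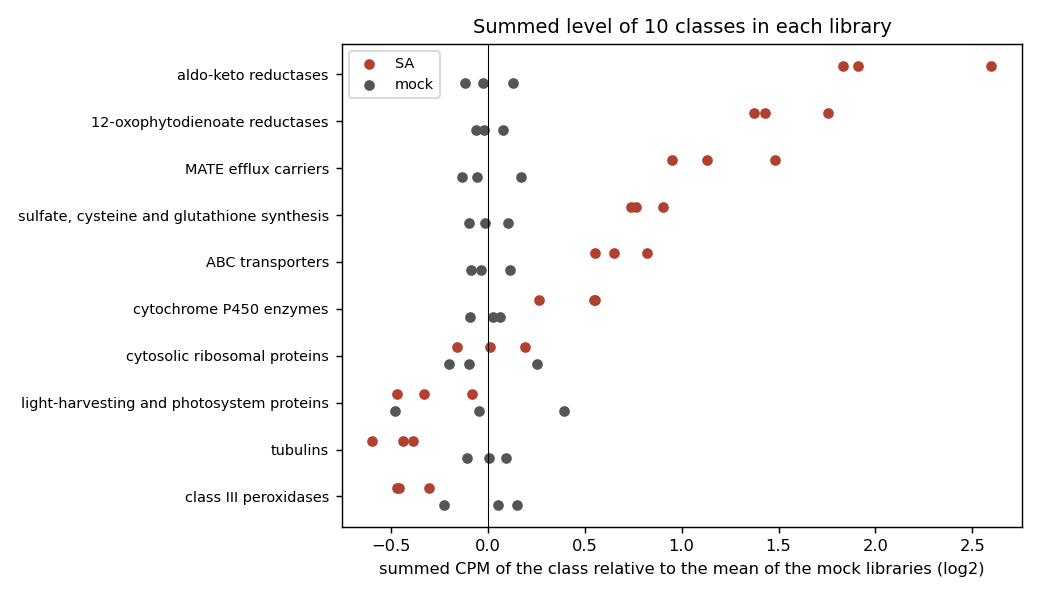
Points give the summed CPM of each of 10 classes in the 3 SA (red) and 3 mock (grey) libraries on a log2 scale relative to the mean of the mock libraries. Aldo-keto reductases stand highest (ratio of means 4.46), tubulins (0.722) and class III peroxidases (0.753) lie below the mock libraries, and cytosolic ribosomal proteins overlap (1.02). The median log2 fold change of the single aldo-keto reductase genes was 0.04.

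Among redox enzymes, glutaredoxins, small proteins that reduce disulfides with glutathione, counted 7 higher and 0 lower of 46. Glutaredoxin genes called higher numbered 2 without mock replicate 2, 3 when mock replicate 1 was left out, and 4 without SA replicate 1, SA replicate 2, SA replicate 3 or mock replicate 3. The glutaredoxin-S5 entry Zm00001eb359850 had 5903, 3774 and 6387.5 normalised counts in SA and 2336.5, 1658 and 1941 in mock leaves, a log2 fold change of 1.44 ± 0.23 (SE) at an adjusted p of 0.0041. Monodehydroascorbate reductase, which regenerates ascorbate, was 1 of 4 higher genes among 35 of the ascorbate, catalase and superoxide dismutase class, whose summed level was 3134, 4103 and 3785 CPM in SA and 4253, 4243 and 3870 CPM in mock leaves: Zm00001eb176160 had 6031, 5787 and 7608 in SA and 673, 972.5 and 958 in mock leaves, a log2 fold change of 2.90 ± 0.27 (SE) at an adjusted p of 0.000156. Genes of that class called higher numbered 1 without mock replicate 1 or mock replicate 2 and 2 without SA replicate 3. In mitochondria, the alternative oxidase and NADH dehydrogenase class, which passes electrons around the proton-pumping complexes, had 3 higher of 12. Zm00001eb071890, an alternative oxidase 1a entry, had 1837, 1015 and 1039 in SA and 67.8, 65.1 and 67 in mock leaves, a log2 fold change of 4.28 ± 0.91 (SE) at an adjusted p of 0.0236. Zm00001eb071890 was no longer called without SA replicate 3, mock replicate 1, mock replicate 2 and mock replicate 3 (adjusted p 0.0607 to 0.107). The external NADH dehydrogenase entry Zm00001eb172970 had 3061, 1498 and 1322 in SA and 265, 284 and 179 in mock leaves, a log2 fold change of 3.01 ± 0.48 (SE) at an adjusted p of 0.00439. Alternative pathway genes called higher numbered 1 without SA replicate 3, mock replicate 1, mock replicate 2 or mock replicate 3.

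Of 62 tested class III peroxidases, secreted enzymes of the cell wall, 0 were higher and 4 lower, and the class median was −0.47 against −0.041 for all tested genes. Peroxidase genes called lower numbered 2 without SA replicate 3 or mock replicate 2, and with the replicate block there were 1 higher and 6 lower. Zm00001eb195200 (chromosome 4, 189320329 to 189322672, plus strand), a peroxidase 4 entry, had 37.9, 47.1 and 68.9 normalised counts in SA and 200.4, 493 and 160.5 in mock leaves, a log2 fold change of −2.47 ± 0.44 (SE) at an adjusted p of 0.00716. Zm00001eb282410, a peroxidase 1 entry, had 35.8, 57.6 and 17.2 in SA and 129, 284 and 130 in mock leaves, a log2 fold change of −2.28 ± 0.50 (SE) at an adjusted p of 0.0202. Zm00001eb282410 was no longer called without SA replicate 1, SA replicate 3 and mock replicate 2 (adjusted p 0.0667 to 0.0932). Summed over the class, the SA libraries held 754, 837 and 748 CPM and the mock libraries 883, 1148 and 1073 CPM, which did not overlap.

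Among the signalling classes, VQ proteins, small partners of WRKY factors, had the highest share of risen members, 7 higher and 0 lower of 29, with a median log2 fold change of 0.60. Zm00001eb389870 (chromosome 9, 115060727 to 115062724, plus strand), a VQ22 entry, had 1881, 959 and 1394 normalised counts in SA and 231, 209.5 and 155 in mock leaves, a log2 fold change of 2.83 ± 0.29 (SE) at an adjusted p of 0.000244. MAP kinase cascade genes counted 6 higher and 1 lower of 56. Zm00001eb155710 (chromosome 3, 210847204 to 210853152, plus strand), 1 of several neighbouring MAPKKK17 entries, had 328, 142 and 85 in SA leaves and 0 counts in every mock library, at least 59.5-fold higher against a floor of 3 counts per library (adjusted p = 0.00113). The floor covers counting error only, and reads may have been divided among the neighbours with this entry. Calcium-dependent and CBL-interacting kinases counted 11 higher and 2 lower of 91. Zm00001eb015210, a CBL-interacting kinase 31 entry, had 6140.1, 5734.5 and 4395 in SA and 1954.5, 2167 and 1719 in mock leaves, a log2 fold change of 1.48 ± 0.18 (SE) at an adjusted p of 0.000658. Calcium kinase genes called higher numbered 7 without SA replicate 1 or mock replicate 2, and with the replicate block there were 15 higher and 2 lower.

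Among receptors, leucine-rich repeat kinases counted 8 higher and 3 lower of 122, lectin kinases 6 higher and 3 lower of 104, and wall-associated and cysteine-rich kinases 6 higher and 1 lower of 81. The NB-ARC immune receptors counted 5 higher and 0 lower of 86. The shares higher, between 5.77% and 7.41%, lie near the 5.11% of all tested genes. Zm00001eb034180, a wall-associated kinase 3 entry, had 7272.5, 5815 and 7349 normalised counts in SA and 1939, 766 and 1454 in mock leaves, a log2 fold change of 2.30 ± 0.29 (SE) at an adjusted p of 0.00101. Several receptor kinases fell. Zm00001eb153700 (chromosome 3, 204574781 to 204582818, plus strand), a LysM receptor-like kinase 3 entry of the family that binds chitin and related sugars, had 1358, 1023 and 819 in SA and 2921, 2399.7 and 3171 in mock leaves, a log2 fold change of −1.41 ± 0.20 (SE) at an adjusted p of 0.00165. The proline-rich kinase PERK4 entry Zm00001eb059240 had 168, 299 and 113 in SA and 1309.6, 1042 and 1371 in mock leaves, a log2 fold change of −2.67 ± 0.37 (SE) at an adjusted p of 0.00165, and it overlaps another gene. Leucine-rich repeat kinases called higher numbered 5 without SA replicate 1 or mock replicate 1, and with the replicate block there were 9 higher and 6 lower. Lectin kinases called higher numbered 2 without SA replicate 3, mock replicate 1 or mock replicate 2, and those called lower numbered 1 without SA replicate 3, Zip1 replicate 1, Zip1 replicate 2, Zip1 replicate 3, mock replicate 1, mock replicate 2 or mock replicate 3. Wall-associated and cysteine-rich kinases called with the replicate block numbered 9 higher and 4 lower. NB-ARC genes called higher numbered 3 without SA replicate 1, SA replicate 3 or mock replicate 2.

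Pathogenesis-related families differed in their counts, and some had very few tested genes. The CAP family, to which PR-1 belongs, had 4 tested genes and 0 called, and thaumatin-like proteins had 1 higher of 22. Among the PR-10 proteins, 4 were tested, 2 were lower and 0 higher. Zm00001eb014010 (chromosome 1, 46990346 to 46991278, plus strand), whose entry reads pathogenesis-related protein 1 but whose Pfam domain is that of PR-10, had 75.9, 204.5 and 171 normalised counts in SA and 457, 752 and 912 in mock leaves, a log2 fold change of −2.23 ± 0.35 (SE) at an adjusted p of 0.00337. Its neighbour Zm00001eb014000 had 451, 490 and 385 in SA and 669.9, 725 and 999 in mock leaves, a log2 fold change of −0.85 ± 0.21 (SE) at an adjusted p of 0.0393. Zm00001eb014000 was no longer called without SA replicate 1, SA replicate 2, SA replicate 3, Zip1 replicate 3, mock replicate 1, mock replicate 2 and mock replicate 3 (adjusted p 0.05 to 0.15). They share 1 entry and lie close together, so that reads may have been divided between them. Chitinases, which cut the fungal wall, counted 3 higher and 1 lower of 17 with a class median of −0.51. The risen acidic endochitinase Zm00001eb174340 had 1076, 755 and 1356 in SA and 152, 159.5 and 314 in mock leaves, a log2 fold change of 2.35 ± 0.31 (SE) at an adjusted p of 0.00119. Family 17 glucanases counted 5 higher and 1 lower of 60. Glucanase genes called higher numbered 2 without mock replicate 1 or mock replicate 3. Chitinase genes called with the replicate block numbered 3 higher and 3 lower.

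Among the other hormones, genes of jasmonate repressors (TIFY) and jasmonate catabolism counted 7 higher and 0 lower of 44, while jasmonate synthesis had 1 higher and 1 lower of 19. The synthesis genes summed to 2114.5, 1389.5 and 1980.4 CPM in SA and 2550.6, 2202.1 and 3312.4 CPM in mock libraries, which did not overlap. Their median log2 fold change was 0.22, with 11 genes above 0 and 8 below. The TIFY 11b entry Zm00001eb006000, a repressor of jasmonate responses, had 324, 264.5 and 335 normalised counts in SA and 84.5, 82.5 and 43.3 in mock leaves, a log2 fold change of 2.13 ± 0.38 (SE) at an adjusted p of 0.007. TIFY and catabolic genes called higher numbered 3 without SA replicate 1 or mock replicate 1 and 4 without SA replicate 3. In ethylene synthesis and signalling, 3 of 22 were higher and 0 lower. Zm00001eb418090, an ACC oxidase entry of the last step, had 1347, 2205 and 1584.5 in SA and 305, 584 and 577 in mock leaves, a log2 fold change of 1.81 ± 0.27 (SE) at an adjusted p of 0.00258. Zm00001eb073290, an ACC synthase entry, had 835.5, 544 and 685 in SA and 43.8, 28.2 and 67.9 in mock leaves, a log2 fold change of 3.87 ± 0.61 (SE) at an adjusted p of 0.00402. Abscisic acid genes had 0 called of 28, and 0 higher and 3 lower with the replicate block.

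For gibberellin, the hormone of stem and leaf growth, a gene of its synthesis and a repressor of its response fell. Zm00001eb145600 (chromosome 3, 175549492 to 175552334, minus strand), a gibberellin 20 oxidase 2 entry for a late step of synthesis, had 478, 692 and 631 normalised counts in SA and 2001.5, 1674 and 3221 in mock leaves, a log2 fold change of −1.94 ± 0.36 (SE) at an adjusted p of 0.0102. The DELLA entry RHT-1, Zm00001eb216610 (chromosome 5, 12392313 to 12395324, minus strand), a repressor of the gibberellin response, had 2376.5, 1965 and 2151 in SA and 5710.2, 4286 and 5124 in mock leaves, a log2 fold change of −1.22 ± 0.16 (SE) at an adjusted p of 0.00104. Enzymes that inactivate gibberellin were called in both directions: Zm00001eb283860 had 439, 449.5 and 640.5 counts in SA and 180.5, 142 and 219 in mock leaves and rose (adjusted p = 0.00376), and Zm00001eb292800 had 0 counts in every SA library and 12.5, 16.3 and 15.8 in mock leaves (adjusted p = 0.0192). Both were picked after their values were seen. The auxin class counted 6 higher and 1 lower of 108 (median −0.18), with the auxin response factor 19 entry Zm00001eb227100 at 1213, 892.5 and 790.1 in SA and 364, 321 and 292 in mock leaves, a log2 fold change of 1.57 ± 0.23 (SE) at an adjusted p of 0.00237. Auxin genes called higher numbered 3 without SA replicate 1, mock replicate 1 or mock replicate 2, and with the replicate block there were 6 higher and 7 lower. Zm00001eb292800 was no longer called without SA replicate 3, mock replicate 1 and mock replicate 2 (adjusted p 0.0525 to 0.0565).

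Of the transcription factors, GRAS (8 higher and 2 lower of 49), ERF (15 higher and 1 lower of 112) and NAC (9 higher and 1 lower of 69) had shares higher of 16.3%, 13.4% and 13%. With the replicate block, NAC factors had 12 higher and 1 lower. Homeodomain factors had 0 called of 82, or 1 higher and 2 lower with the block. MYB factors had 4 higher of 136, 1 of them the NPR3 entry above, which the table marks with that family. Zm00001eb325750 (chromosome 7, 170355730 to 170359277, plus strand), a GRAS factor whose rice relative answers to chitin and gibberellin, had 3233, 1168 and 1363 normalised counts in SA and 30.3, 21.7 and 63 in mock leaves, a log2 fold change of 5.63 ± 0.53 (SE) at an adjusted p of 0.000239. Zm00001eb307550, an ethylene-response factor C3 entry, had 866, 410.5 and 427 in SA and 13.6, 9.77 and 0.985 in mock leaves, a log2 fold change of 6.12 ± 0.72 (SE) at an adjusted p of 0.00071. Zm00001eb149810, a NAC68 entry, had 1090.2, 548.5 and 382 in SA and 25, 26 and 34.5 in mock leaves, a log2 fold change of 4.55 ± 0.48 (SE) at an adjusted p of 0.00035. In all 3 genes SA replicate 1 was the highest library and no mock library came near the SA range. The bHLH class counted 6 higher and 1 lower of 91, near the share of all tested genes. GRAS genes called higher numbered 4 without SA replicate 1, mock replicate 1, mock replicate 2 or mock replicate 3 and 5 without SA replicate 3. ERF genes called higher numbered 8 without SA replicate 3 and 9 without mock replicate 1 or mock replicate 2, and with the replicate block there were 17 higher and 4 lower.

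Genes of phenolic metabolism were called in both directions. In the shikimate pathway and the synthesis of aromatic amino acids, 7 were higher and 2 lower of 54. Shikimate pathway genes called higher numbered 3 without SA replicate 3 or mock replicate 1 and 4 without SA replicate 1 or mock replicate 2, and with the replicate block there were 9 higher and 4 lower. The dehydroquinate dehydratase and shikimate dehydrogenase entry Zm00001eb131900 had 1246, 1239 and 1500.5 normalised counts in SA and 573, 488 and 649.9 in mock leaves, a log2 fold change of 1.22 ± 0.15 (SE) at an adjusted p of 0.000961. Phenylalanine ammonia-lyase, the entry to phenylpropanoids, had 10 tested genes, 0 higher, 1 lower, a median log2 fold change of −1.27 and 9 of 10 below 0. The summed level of the class was 137, 131 and 164 CPM in SA and 124, 156 and 130 CPM in mock leaves, which overlap. Zm00001eb185240, a phenylalanine/tyrosine ammonia-lyase entry, had 74.8, 153 and 60.3 in SA and 360, 326 and 182 in mock leaves, a log2 fold change of −1.58 ± 0.39 (SE) at an adjusted p of 0.0381. Zm00001eb185240 was no longer called without SA replicate 1, SA replicate 3, Zip1 replicate 3, mock replicate 1 and mock replicate 2 (adjusted p 0.0547 to 0.136). The exception, Zm00001eb247630, had 3818, 3138 and 4583 in SA and 2439, 2793 and 2641 in mock leaves and did not pass (adjusted p = 0.0985). It stands close to 4 genes with the same entry. Ammonia-lyase genes called with the replicate block numbered 0 higher and 4 lower.

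Among 57 enzymes after that step, 7 were higher and 3 lower. Phenylpropanoid genes called lower numbered 1 without SA replicate 1, SA replicate 2, SA replicate 3, Zip1 replicate 1, mock replicate 1 or mock replicate 2, and with the replicate block there were 8 higher and 5 lower. The gene with the smallest p of the whole comparison was here: Zm00001eb070170 (chromosome 2, 9225725 to 9228152, plus strand), a cinnamyl alcohol dehydrogenase 1 entry named for an enzyme that reduces cinnamaldehydes. It had 2059, 2396 and 3130.2 normalised counts in SA and 9.39, 13 and 8.86 in mock leaves, a log2 fold change of 7.91 ± 0.29 (SE) at an adjusted p of 4.35e-07. A second gene with this entry, Zm00001eb374100, had 2948, 4439.6 and 7259 in SA and 322.5, 448 and 490.4 in mock leaves, a log2 fold change of 3.54 ± 0.33 (SE) at an adjusted p of 0.000146. Caffeic acid O-methyltransferase, which shapes lignin, fell: Zm00001eb172420 had 391, 694 and 470.4 in SA and 1593.5, 1913 and 2187 in mock leaves, a log2 fold change of −1.87 ± 0.30 (SE) at an adjusted p of 0.00355. Benzoxazinoids are the indole-derived defence compounds of maize seedlings, and their 23 tested enzymes counted 4 higher and 1 lower. The risen BX8 entry Zm00001eb096940, a glucosyltransferase, had 206, 475 and 583 in SA and 9.39, 20.6 and 42.3 in mock leaves, a log2 fold change of 4.11 ± 0.57 (SE) at an adjusted p of 0.00169. BX6, counted with the 2-oxoglutarate dioxygenases, fell: Zm00001eb164860 had 1038, 917 and 909.6 in SA and 1914, 1426 and 3193 in mock leaves, a log2 fold change of −1.19 ± 0.27 (SE) at an adjusted p of 0.0258. Zm00001eb164860 was no longer called without SA replicate 1, SA replicate 2, SA replicate 3, mock replicate 1 and mock replicate 3 (adjusted p 0.0529 to 0.103). Benzoxazinoid genes called higher numbered 2 without SA replicate 3, mock replicate 1 or mock replicate 2.

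Several classes of growth and transport had 0 higher genes or a median below 0. Over all tested genes, 5.11% were higher and the median was −0.041. At that share a class of 29 or 39 genes would hold few higher genes, so a count of 0 higher says little. Phosphate transporters with SPX proteins and acid phosphatases counted 0 higher and 2 lower of 39, or 0 and 5 with the replicate block. Aquaporins, the water channels of membranes, counted 0 higher and 1 lower of 29 with a median of −0.34, or 1 and 2 with the block. Tubulins, the subunits of microtubules, counted 0 higher and 4 lower of 30, with 26 of 30 below 0 and a median of −0.48. Zm00001eb325230 (chromosome 7, 169092433 to 169096038, plus strand), the tubulin alpha-3 entry, had 921, 1016 and 860.1 normalised counts in SA and 2219.6, 1651 and 2329 in mock leaves, a log2 fold change of −1.15 ± 0.16 (SE) at an adjusted p of 0.00171. Zm00001eb215710, a tubulin alpha-1 entry, had 889.7, 638.5 and 1114 in SA and 2040.1, 2587 and 1345 in mock leaves, a log2 fold change of −1.18 ± 0.25 (SE) at an adjusted p of 0.0185. Zm00001eb215710 was no longer called without SA replicate 1, SA replicate 2, mock replicate 1 and mock replicate 2 (adjusted p 0.0557 to 0.0706). Tubulin genes called lower numbered 1 without SA replicate 1 or mock replicate 2 and 2 without SA replicate 3 or mock replicate 1. With the block, 0 tubulin genes were higher and 6 lower. Tubulin genes are similar copies, and how the authors' counting divided reads among them is not known here. Summed, they came to 824, 954 and 920 CPM in SA and 1157, 1330 and 1249 CPM in mock libraries. The markers of dividing cells, histones, cyclins and kinesins, spanned 2946 to 3232 CPM in SA and 3219 to 3289 CPM in mock libraries, with 3 of 159 higher and 3 lower.

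Potassium transporters and channels counted 3 higher and 4 lower of 48. The outward channel entry KOR1, Zm00001eb280210 (chromosome 6, 126404924 to 126410783, minus strand), had 210.2, 147 and 142 normalised counts in SA and 960.1, 708 and 624 in mock leaves, a log2 fold change of −2.20 ± 0.29 (SE) at an adjusted p of 0.00127. Potassium transporter 10 (Zm00001eb275630) had 356.5, 330.2 and 116 in SA and 1328, 1132 and 726 in mock leaves, a log2 fold change of −1.99 ± 0.37 (SE) at an adjusted p of 0.0088. Potassium transporter 18 (Zm00001eb306800) went the other way, with 5174.5, 4188 and 5119 in SA and 2345, 1567 and 2168 in mock leaves, a log2 fold change of 1.25 ± 0.20 (SE) at an adjusted p of 0.00312. Potassium genes called lower numbered 2 without SA replicate 2, SA replicate 3 or mock replicate 1. Cellulose synthases had a median of −0.54, and the 3 higher among 34 were all entries for cellulose synthase-like proteins. Cellulose synthase genes called with the replicate block numbered 2 higher and 5 lower. Wax and very-long-chain fatty acid enzymes, which build the cuticle, had 1 higher and 0 lower of 50 and a median of −0.37. Wax genes called with the replicate block numbered 2 higher and 9 lower. Fatty acid genes among the lowest p-values of the falls were the malonyl transacylase entry Zm00001eb013760, at 2384, 2229 and 1912 in SA and 6488, 8954 and 5060.1 in mock leaves, a log2 fold change of −1.65 ± 0.23 (SE) at an adjusted p of 0.00151, and the acyl-CoA-binding protein 6 entry Zm00001eb211150, at 397, 388 and 377 in SA and 1069, 917 and 856 in mock leaves, a log2 fold change of −1.29 ± 0.16 (SE) at an adjusted p of 0.0008.

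**Figure D5:**
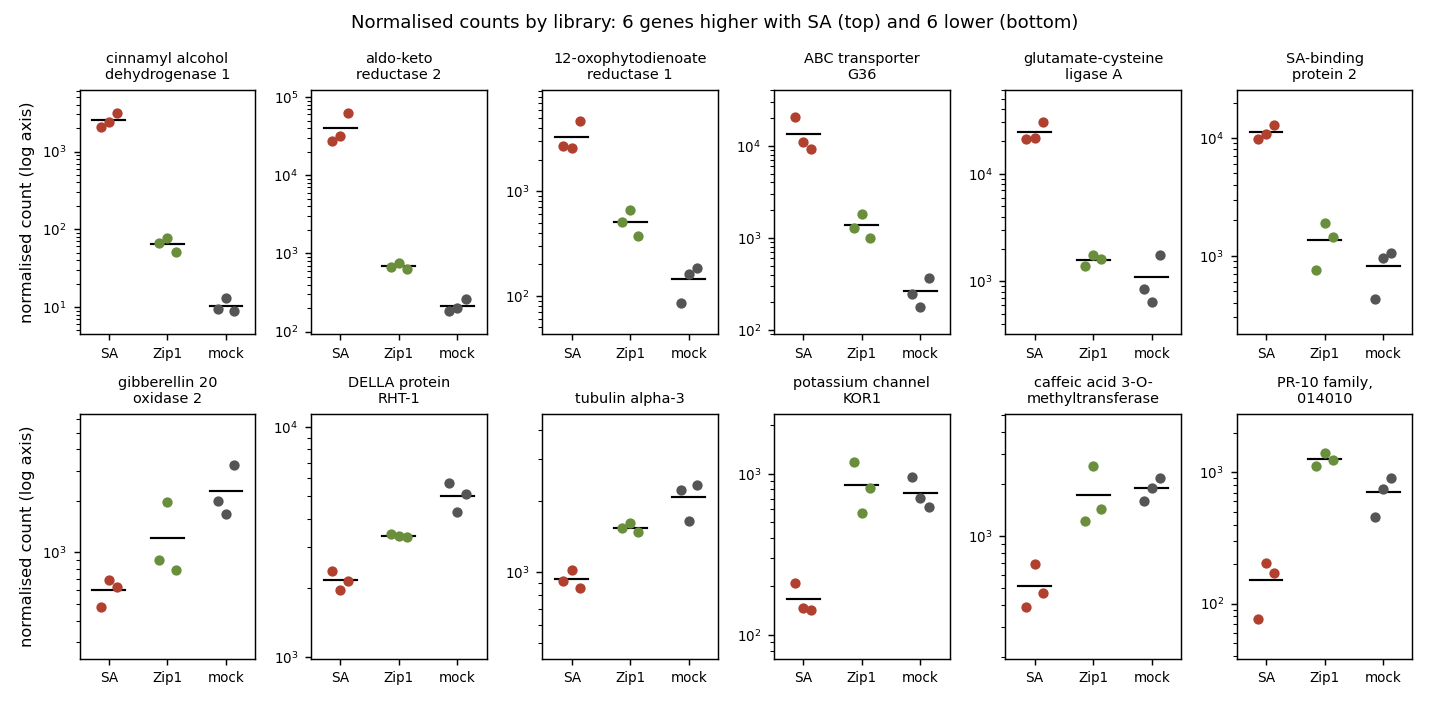
Normalised counts of 12 genes in each library on log axes, with SA, Zip1 and mock from left to right, 3 points per group and a black bar at the mean. The upper 6 genes are higher in every SA library than in any mock library and the lower 6 are lower, and in the upper row the Zip1 mean lies between those of SA and mock. Outside the small classes, the naming rule required this separation of SA and mock libraries.

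Light-harvesting and photosystem genes had 0 called of 61, with 53 below 0, a median of −0.30 and sums of 90550, 118533 and 99687 CPM in SA and 121682, 164907 and 89843 CPM in mock libraries, which overlap. With the replicate block, 0 light-harvesting and photosystem genes were higher and 2 lower. Calvin cycle genes had 0 called of 18, or 0 higher and 1 lower with the block, and plastid ribosomal proteins 0 of 51. Cytosolic ribosomal proteins had 2 higher and 0 lower of 316, both entries for protein L10, and 3 higher and 2 lower with the block. The proteasome had 0 higher and 1 lower of 90, or 3 and 1 with the block, and autophagy proteins had 0 called of 31. Genes of starch, sucrose and trehalose counted 9 higher and 0 lower of 92, among them the trehalose-phosphate phosphatase Zm00001eb249690 with 3477.5, 2238 and 4814 normalised counts in SA and 989, 824 and 1118 in mock leaves, a log2 fold change of 1.84 ± 0.25 (SE) at an adjusted p of 0.00156. A count of 0 in this test does not show that these genes were equal between the groups: over all genes, 4371 had an unadjusted p under 0.05. Starch and sugar genes called with the replicate block numbered 12 higher and 3 lower.

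Zip1 leaves were set beside SA leaves to see which of these classes differed between the solutions in a direct test. In edgeR's quasi-likelihood test, 949 genes (4.11%) differed between SA and Zip1, 590 higher (2.56%) and 359 lower (1.56%) in SA. Against mock, Zip1 had 204 calls (0.884%), 190 higher (0.823%) and 14 lower (0.0607%), and because this comparison uses the same mock libraries as that of SA, values are only set side by side. The calls of SA against Zip1 numbered 509 and 590 when SA replicate 3 or SA replicate 1 was left out. They numbered 456 for Zip1 replicate 3, 498 for Zip1 replicate 1 and 609 for Zip1 replicate 2. The calls of Zip1 against mock numbered 0 when mock replicate 1 was left out and 41 for mock replicate 2. They numbered 56 for Zip1 replicate 2, 102 for Zip1 replicate 3 and 117 for Zip1 replicate 1. P450 enzymes had 23 genes higher and 3 lower in SA than in Zip1 leaves, ABC transporters 9 and 3, the salicylate class 7 and 0, and sulfur and glutathione genes 6 and 0. MAP kinase cascade genes had 6 and 0, GRAS factors 6 and 1, and class III peroxidases 0 and 6. Chitinases had 0 and 2, and family 17 glucanases 1 and 6. Tubulins had 0 and 5.

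Single genes show the range of these differences. The aldo-keto reductase Zm00001eb037000 had 27701, 31697 and 62373 normalised counts in SA, 680.2, 755 and 636 in Zip1 and 184, 197.5 and 259.9 in mock libraries, a log2 fold change of SA over Zip1 of 5.88 (adjusted p = 2.92e-05). The PR-10 gene Zm00001eb014010 had 75.9, 204.5 and 171 in SA, 1125.5, 1392 and 1245.5 in Zip1 and 457, 752 and 912 in mock libraries (SA over Zip1 −3.05, adjusted p = 0.00134). The chitinase 6 entry Zm00001eb246640 did not pass between SA and Zip1: it had 1776, 1753 and 2002 in SA, 1581, 1606 and 2572 in Zip1 and 518, 744.5 and 942 in mock libraries (SA over Zip1 −0.06, adjusted p = 0.939). Adenylylsulfate reductase Zm00001eb322440 had 6639, 5275 and 6848 in SA, 692.5, 424 and 700.3 in Zip1 and 1538, 1052 and 1507.5 in mock libraries (SA over Zip1 3.37, adjusted p = 8.15e-05). Its Zip1 libraries lay below every mock library and its SA libraries above, with a log2 fold change of Zip1 over mock of −1.17 (adjusted p = 0.0451), a call lost without mock replicate 1.

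Genes called higher lay next to each other in places. Of the 1180, 241 (20.4%) stood in 113 runs of 2 or more adjacent tested genes that were all higher, 12 runs held 3 or more, and the longest held 4. As 5.11% of all tested genes were higher, some runs would form in any order of genes. How many was not tested. On chromosome 3, from 222595714 to 222669367, the run of 4 were P450 72A relatives: Zm00001eb159280, Zm00001eb159290, Zm00001eb159310 and Zm00001eb159320. On chromosome 1, from 82004639 to 82377069, a P450 704C1 entry stood beside 3 glutathione S-transferase GSTU6 entries. On chromosome 5, from 21438126 to 21642696, the run held a pair of DETOXIFICATION 40 entries. Of these, Zm00001eb219770, picked after its values were seen, had 28009.7, 24558 and 39085 normalised counts in SA and 7475, 8398 and 13016 in mock libraries (log2 fold change 1.67, adjusted p = 0.00325). Neighbours with the same entry may share reads, so a run may count the same reads for more than 1 gene.

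Of 543 Pfam names carried by at least 10 tested genes, 195 had no called gene, 20 had at least 25% of their genes higher and 23 at least 10% lower. The 20 include names of the heat shock, glutathione S-transferase and UDP-glycosyltransferase classes, and some of the 23 rest on 1 gene of 10. The families outside the classes were picked by these shares, and the same contrast ranks them, so they are a description. The domain of unknown function DUF1645 had 5 of 10 higher. DUF668, which the PSK SIMULATOR proteins carry, had 4 of 10 higher: Zm00001eb272300 had 348, 275 and 422 normalised counts in SA and 102, 86.8 and 66 in mock libraries (log2 fold change 2.03, adjusted p = 0.00117). The domain found at the end of a group of AAA-ATPases was called in both directions, with 6 higher and 3 lower of 17. The mitochondrial AAA-ATPase ASD entry Zm00001eb078870 had 6679.7, 4679 and 3779 in SA and 616, 519.9 and 1182 in mock libraries (log2 fold change 2.71, adjusted p = 0.00523). Another member, the AAA-ATPase entry Zm00001eb313660, fell to 339, 384 and 209 in SA libraries, against 795, 728 and 633 in mock libraries (log2 fold change −1.21, adjusted p = 0.0163). The ABA/WDS family, proteins of drying tissue, had 2 of 10 lower, of which Zm00001eb422400 had 382.5, 483 and 675 in SA and 1526, 1429 and 1288 in mock libraries (log2 fold change −1.46, adjusted p = 0.007). Zm00001eb313660 was no longer called without mock replicate 1 (adjusted p 0.0626).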

How the data were processed

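Messenger RNA of 9 maize leaf libraries was measured by RNA-seq after selection with poly-T beads. The authors deposited whole-number read counts per gene, with coordinates, protein entries and Pfam names in the same table. HISAT2 2.0.5, featureCounts 1.5.0-p3 and DESeq2 1.20.0 are listed in the submitters' processing notes without their roles. The genome build and strand setting are not given in the sources used here, so reads of overlapping or antisense genes cannot be told apart. A deposited table of 9 FPKM columns was not used because its decimal points were lost.

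The members, classes and named genes were chosen with earlier results of these data known. Counts were scaled by TMM and filtered with filterByExpr, which kept 23077 genes. All 9 libraries were fitted by group with edgeR 4.0.16 (robust quasi-likelihood, R 4.3.3), and genes with a Benjamini-Hochberg adjusted p under 0.05 were called. Adjusted p-values given in the text come from this fit, and the steps were tested on simulated data. The p-values rest on 3 libraries per group with totals of 28840453 to 38794412 counts, and the common biological coefficient of variation was 34.41%. Classes were described by counts and medians and not tested.

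Genes were named by 3 rules: the 2 called members with the lowest p in each direction of a class with at least 3 such members, every called member of a class with 12 or fewer tested genes, and the 10 lowest p-values per direction outside the heat shock, WRKY, glutathione S-transferase and UDP-glycosyltransferase classes. Apart from the small classes, the group with the higher mean had to average 50 normalised counts or more, with no overlap of libraries, and not every eligible gene is named. SA and mock libraries did not overlap in 5525 of the 23077 tested genes, and in 1179 of the 1180 higher genes. Members of a pathway that were not called could be named with their values.

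SA and mock libraries with the same replicate number deviated together (correlation of deviations from group means 0.154, 0.164 and 0.13 for the same number, −0.0968 to −0.0463 for other pairs). The numbers may thus mark a pairing. In the library names, libraries of the same number also share a letter (D, E or F). No label says what the number or the letter marks. The main fit left the numbers out, so its adjusted p-values and class counts do not allow for a pairing. Blocked values stand beside only some of the results they change. RLE scaling, DESeq2 1.42.0, no filter on low counts, a fit of the 2 groups alone, the block, an adjusted p under 0.01 and each library left out in turn were the alternatives.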

Additional observations from a re-analysis of the deposited data

How the results depend on the processing

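With 3 libraries per group, the size of the lists depended more on the tool, the block and single libraries than on scaling. The total for SA against mock was 2449 with DESeq2, 2220 with the replicate block and 662 at an adjusted p under 0.01, and 839 to 1414 with a library left out. The higher genes numbered 609 at the stricter threshold and 747 to 1170 with a library left out. The lower genes numbered 687 with DESeq2, 679 with the block, 53 at the stricter threshold and 90 to 244 with a library left out. In the 99 classes the higher genes numbered 200 at the stricter threshold and 234 to 372 with a library left out. The lower ones there numbered 216 with DESeq2, 219 with the block, 56 with the 2 groups alone, 19 at the stricter threshold and 32 to 83 with a library left out. SA against Zip1 gave 2037 calls with DESeq2, 1553 with the block and 456 to 960 with a library left out. Zip1 against mock gave 930, 574 and 0 to 243 under the same settings. The genes called by DESeq2 took 11.6% (higher) and 2.92% (lower) of the SA libraries, and 3.95% and 4.99% of the mock libraries. The cause of these shifts was not tested. None of the 143 genes eligible to be named changed sign under an alternative. Counts of higher and lower genes did turn with the block in several classes. Among these, cellulose synthases had 2 higher and 5 lower, wax enzymes 2 and 9, and auxin genes 6 and 7. Cyclins and kinesins had 3 higher and 6 lower, thioredoxins 2 and 3, carboxylesterases 3 and 4, and lipid-transfer proteins 3 and 4. Of the 1436 calls, the block kept 1403 and DESeq2 kept 1434. Of 143 genes eligible to be named, 143 kept their call under the block, 142 with RLE scaling and 119 at the stricter threshold, and 125 to 141 with a library left out.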
